A study of Drosophila melanogaster with 3 samples.

Results

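Arm 3L is the left arm of the large autosome 3 of Drosophila melanogaster. It runs from the telomere at low coordinates to the centromere at high coordinates, and the gene Hr78 itself lies on it. The peaks described here are all those that the deposited Hr78-GFP list places on the sequence 3L, without the separate heterochromatic sequence 3LHet. They number 990 of the 4851 peaks in the list. They were chosen by their position alone, so their scores and widths played no part in the choice. A peak is a stretch of the genome where the peak caller found more ChIP reads than background. Positions are those of FlyBase release 5.

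The material was whole wandering larvae, labelled L3, of the strain Hr78-GFP. All libraries share the genotype PBac{y[+]-attP-3B}VK00037, with a transgene holding the Hr78 genomic coding region, and a sex given as unknown. A rabbit polyclonal antibody against green fluorescent protein (GFP), ab290, gave 2 Hr78-GFP ChIP libraries, and 1 library was input DNA from the same strain. The culture protocol in the labels names y; bw cn sp flies, whereas the strain field names Hr78-GFP. The peaks come from whole animals, so a site bound in a small tissue and a site bound weakly in every tissue cannot be told apart. There is 1 peak list for all 3 libraries, the depth is unknown, and no value has a replicate behind it. All comparisons are therefore descriptions of this list, and none was tested.

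Hr78 is an orphan nuclear receptor, a transcription factor that binds DNA through paired zinc fingers and for which no ligand is firmly established. It is needed for the ecdysone response that starts metamorphosis, and larvae that lack it die late in larval life with defects of the tracheal system. In vitro it can bind some of the DNA elements that are also bound by the ecdysone receptor. Towards the centromere, the assembled arm passes from gene-rich euchromatin into pericentric heterochromatin, which is rich in repeats and compacted by heterochromatin proteins.

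Hr78-GFP peaks reached from one end of 3L to the other. The first began at 72140 and the last ended at 24530630, and the arm is measured up to that last end. This gave 40.4 peaks per Mb. Together the peaks covered 529 kb, or 2.16% of the arm. Most were short, with a median width of 391 bp, quartiles of 272 and 666 bp, and extremes of 201 and 3563 bp.

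The strength of a peak is read from the deposited score, which is not defined in the sources used here and serves to rank peaks within the list. On 3L the score had a median of 13.71, quartiles of 10.11 and 23.68, and extremes of 6.3 and 232.59. Wider peaks scored higher, with a Spearman rho of 0.75 over the 990 peaks. Width and score come from the same read pile-up, and peaks are not independent replicates. A peak is called strong below when its score is at least 33.59, the 1000th highest in the list, which 1008 peaks reach because of ties (20.8% of the list). On 3L 166 peaks were strong, or 16.8%. The lowest strong score on the arm was 33.59, and the next score below it was 33.15.

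By these measures 3L was close to the other autosomal arms. Its density of 40.4 peaks per Mb stood beside 38.5 on X, 2L, 2R and 3R pooled, with a range of 30.8 on X to 46.3 on 2R. The median score was 13.71 on 3L and 14.03 on the other arms pooled, and the median width was 391 bp on 3L and 408 bp on those arms. Strong peaks made up 16.8% on 3L and 19.8% on the other arms, where the share ran from 16.4% on 3R to 26.7% on X. In strong peaks per Mb, 3L had 6.77 and the other arms 7.61. Peaks of 1000 bp or more numbered 113 on 3L, or 11.4%, against 12.4% on the other arms. The sign of the small difference in density depended on the arms chosen, since against 2L, 2R and 3R alone the ratio was 0.99 and against all the other large arms 1.05.

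**Figure D1:**
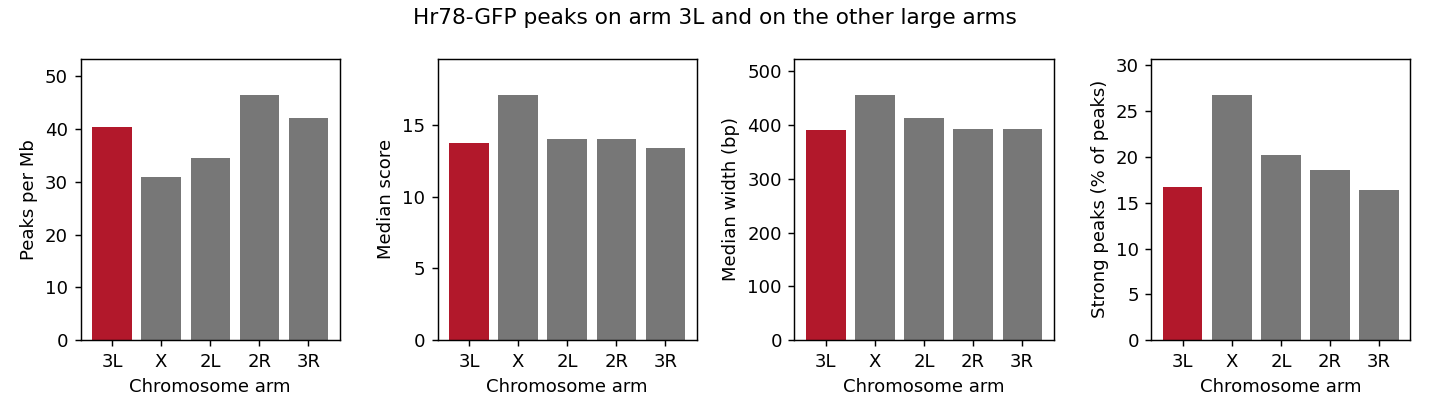
Bars give, for 3L (red) and for X, 2L, 2R and 3R (grey), the number of peaks per Mb, the median deposited score, the median width in bp and the percentage of strong peaks (score of 33.59 or more). Each bar is 1 value from 1 list and has no error bar; 3L lies within the range of the other arms in density (40.4 per Mb), score (13.71) and strong share (16.8%), and its median width of 391 bp is just under the lowest of the others, 392 bp on 3R.

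Density was uneven along 3L. In stretches of 5 Mb from the telomere, the arm carried 45.8, 34.4, 30.2 and 61.4 peaks per Mb, and the remaining 4.53 Mb up to the last peak carried 28.9. The stretch from 15000001 to 20000000 thus held 307 of the 990 peaks. The stretch before it held 151. The 307 peaks did not have a higher median score. Their median was 12.77, the lowest of the stretches, against 15.35 in the stretch before it, and 13.7% of them were strong, against 15.9%. Strong peaks were nevertheless more numerous per Mb there, at 8.4 against 4.8 in the stretch before it. The first 5 Mb also had 8.4 strong peaks per Mb. Over the 24 complete megabases the number of peaks ran from 11 to 91, with a median of 39.5.

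Strong peaks numbered 1 to 12 in each of the 24 complete megabases, with a median of 7. Megabases with more peaks had more strong peaks (Spearman rho 0.70 over 24 megabases, which share 1 list and neighbour each other). Strong peaks are themselves part of the peak count, which by itself raises this rho. Megabases with more peaks also had lower median scores (rho −0.50, and −0.38 without the final pair of megabases). Up to position 22000000 the median score of a megabase stayed between 11.77 and 18.18. It was 16.37 in the next megabase, 60.0 in the one from 23000001 to 24000000, and 65.09 in the remainder.

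**Figure D2:**
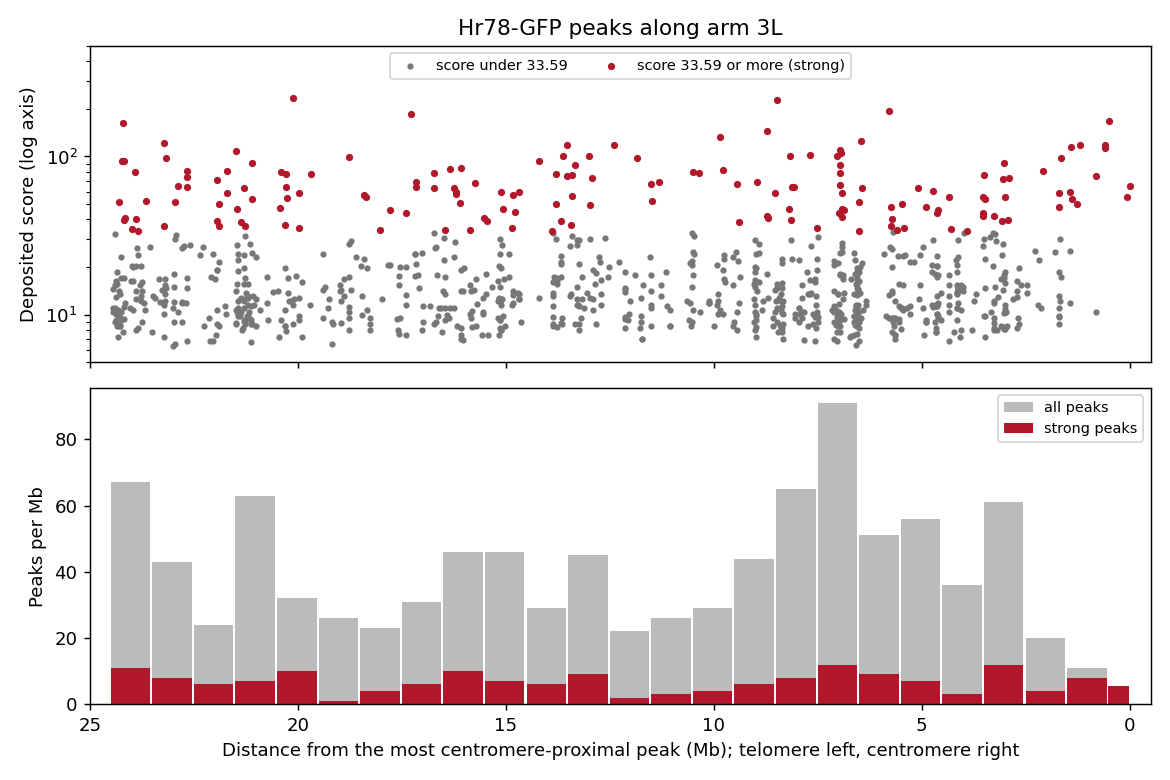
The upper panel shows the deposited score of each of the 990 peaks on a log axis against its distance in Mb from the most centromere-proximal peak, with strong peaks (33.59 or more) in red. The lower panel shows all peaks (grey) and strong peaks (red, drawn in front) per Mb; all peaks reach 91 in the fullest megabase and 11 in the last complete one, where 8 of the 11 are strong.

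At the telomeric end peaks were dense and of ordinary strength. The 2 Mb at the telomere held 110 peaks, or 55.0 per Mb, against 39.1 per Mb on the rest of the arm. The first 1 Mb held 67 of them and the second 43. How dense this end was depended on the length taken. The ratio of its density to the rest of the arm was 1.71 in 1 Mb, 1.41 in 2 Mb, 1.12 in 3 Mb and 1.28 in 4 Mb. The median score was 14.03 in the 2 Mb and 13.71 on the rest, and 17.3% of the peaks there were strong, against 16.7%. The strongest telomeric peak, at 318526 to 320143, was 1618 bp wide with a score of 161.93 and ranked 6th on the arm.

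Next to the centromere weak peaks became scarce while strong peaks did not. The 2 Mb up to the last peak held 27 peaks, or 13.5 per Mb, against 42.7 per Mb on the rest of the arm. Peaks below the strong score numbered 13 there, or 6.50 per Mb, against 36.0 per Mb elsewhere, a ratio of 0.18. Strong peaks numbered 14, or 7.0 per Mb, against 6.75 per Mb elsewhere, a ratio of 1.04. The share of strong peaks was accordingly 51.9% in this stretch and 15.8% on the rest of the arm, and the median width was 686 bp against 388 bp. The median score was 48.17, against 13.71.

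The contrast depended on how much of the arm was taken. In the 1 Mb next to the last peak the median score was 75.11, with 6 of 7 peaks strong. In 3 Mb it was 18.46 with 17 of 49 strong, and in 4 Mb 16.87 with 28 of 100 strong. Counted in steps of 0.5 Mb away from the last peak, 2 of 2, 4 of 5, 5 of 7 and 3 of 13 peaks were strong, then 1 of 7, 2 of 15, 6 of 39 and 5 of 12. The strong share was 71.4% or more in each of the 3 steps nearest the centromere and 41.7% or less in each of the 5 steps further out.

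The strong peaks next to the centromere were spread over 1.7 Mb, some alone and some with weak or strong neighbours. The first was a 2978 bp peak at 22815503 to 22818480 with a score of 58.89, the second-widest peak of the arm. It was the first of 11 peaks up to 22872108, among which the peak at 22828287 to 22828999 was also strong, with a score of 48.17. The peak at 22887426 to 22888334 scored 98.05.

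After a gap of 200.1 kb followed a peak at 23088437 to 23089164 with a score of 60.00. The next strong peaks were at 23118250 to 23119312 (114.67), at 23143095 to 23144338 (53.44) and at 23251410 to 23252089 (49.81). A 1522 bp peak at 23330995 to 23332516 scored 117.45. Beyond it, the 595 bp peak at 23707675 to 23708269 scored 75.11.

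A close pair followed, with a score of 112.60 at 23935592 to 23936076 and of 118.99 at 23940298 to 23940957. The peak at 24020758 to 24021824 had the highest score of this stretch, 168.44, and ranked 5th on the arm. The last pair had a score of 55.05 at 24457289 to 24457974 and of 65.09 at 24529102 to 24530630. Among the 20 highest-scoring peaks of 3L, 5 lay in these 2 Mb.

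**Figure D3:**
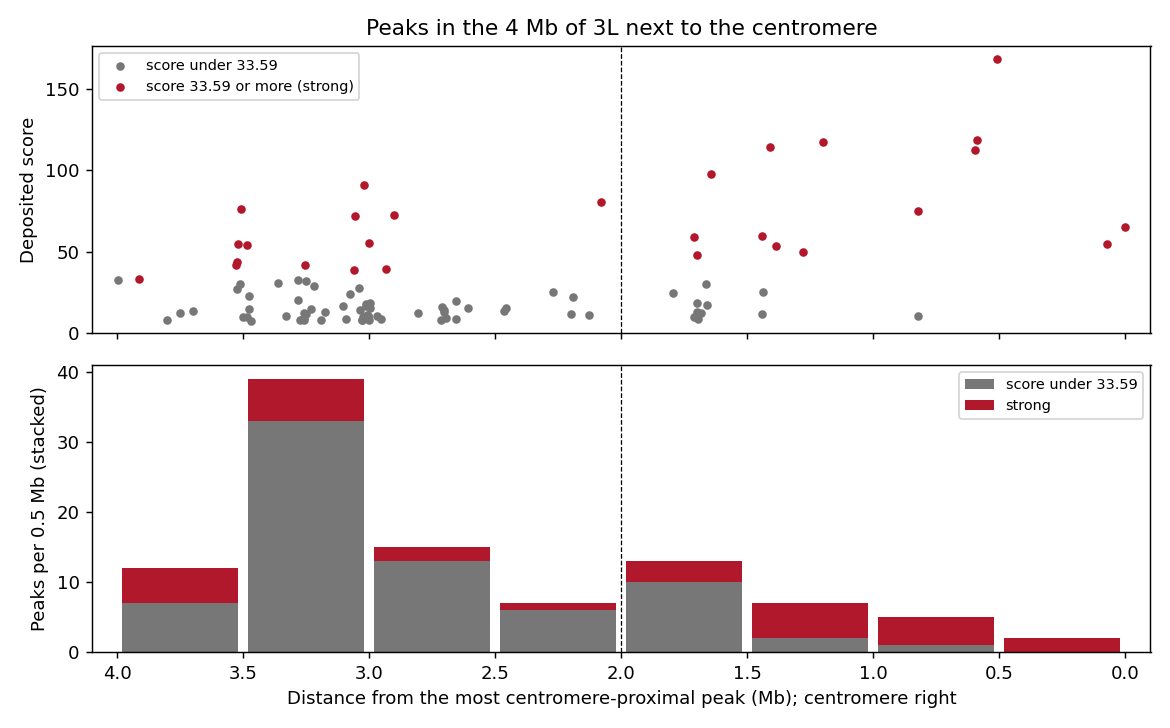
The upper panel shows the deposited score of every peak in the 4 Mb of 3L next to the centromere against its distance in Mb from the last peak, with strong peaks in red and the 2 Mb boundary dashed. The lower panel stacks weak (grey) and strong (red) peaks in steps of 0.5 Mb; weak peaks thin out towards the centromere, where 11 of the last 14 peaks are strong.

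A higher proportion of strong peaks next to the centromere was not particular to 3L, although its extent differed between arms. The ratio of strong peaks per Mb in the 2 Mb next to the centromere to the rest of the arm was 1.04 on 3L, against 0.52 on X, 1.67 on 2L, 1.81 on 2R and 1.94 on 3R. The same ratio for weak peaks was 0.18 on 3L, against 0.21 on X, 0.82 on 2L, 0.36 on 2R and 1.44 on 3R. On every arm the ratio was thus higher for strong peaks than for weak ones. Median scores in these 2 Mb were 21.83 on X, 15.685 on 2L, 34.385 on 2R and 12.77 on 3R. On the rest of those arms they were 17.05, 13.97, 13.71 and 13.43. On the separate sequence 3LHet, 11 of 17 peaks were strong, with a median score of 84.73.

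The strongest peaks of 3L were spread over the arm. The highest score, 232.59, belonged to a 1679 bp peak at 4402629 to 4404307. It ranked 14th in the whole list and its nearest neighbour's centre was 1.88 kb away. The second, at 16044900 to 16046161, scored 227.15 over 1262 bp and ranked 18th in the list. The third, at 18752078 to 18752837, scored 193.89 over 760 bp. The fourth, at 7241835 to 7243367, scored 186.63 over 1533 bp and stood alone, with no other peak centre within 95.8 kb. The fifth and sixth were the centromeric and telomeric peaks given above.

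Of the remaining peaks among the 20 highest, 4 lay on the telomeric side, up to position 12117792. The widest of the 20, 1925 bp from 1312303 to 1314227, scored 121.07. A 648 bp peak from 3035150 to 3035797 scored 108.02 and bordered a peak-free stretch. Equal scores of 117.45 belonged to a peak from 11003337 to 11004222, with a neighbour 1.33 kb away, and to a lone peak from 12117148 to 12117792, with none within 116 kb. A further 6 lay between 14666929 and 18056781, all but the first of them in the dense stretch from 15000001 to 20000000. The peaks from 14666929 to 14667618 and from 15818524 to 15819601 scored 132.36 and 145.58. The peak from 16835017 to 16836120 had the lowest score of the 20, 101.77. The last 3 lay between 17372602 and 18179367, with scores of 109.86 (starting at 17563021), 105.79 (starting at 17583377) and 124.48 (starting at 18056161). The others have been named next to the centromere. The 20 peaks were 485 to 1925 bp wide, with a median of 1000 bp. Another peak centre lay within 5000 bp of 13 of the 20, or 65.0%, against 69.8% of all peaks on 3L. For 5 of the 20, or 25.0%, there was none within 20000 bp, against 10.4% of all peaks.

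The widest peaks were not the strongest. The widest, 3563 bp at 14748054 to 14751616, scored 81.87 and ranked 38th on the arm. The next after the 2978 bp peak near the centromere were 2801 bp at 21017672 to 21020472 with a score of 76.09, and 2533 bp at 10657702 to 10660234. The last of these scored 32.68 and so fell short of a strong peak. The fifth, 2403 bp at 17569429 to 17571831, scored 88.40. Of the 113 peaks of 1000 bp or more, 65 were strong, or 57.5%, against 101 of 877 shorter peaks, or 11.5%.

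Strong peaks lay far apart. The median distance between the centres of neighbouring strong peaks was 75.4 kb on 3L, with quartiles of 20.6 and 212 kb, against a median of 64.3 kb on the other large arms. In 12.1% of pairs on 3L the centres were under 5000 bp apart, against 10.0% on the other arms. The longest stretch of 3L without a strong peak ran over 0.90 Mb, from 4840975 to 5745956, and held 18 weaker peaks.

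Taking all peaks, neighbours on 3L lay about as close as on 2R. The median distance between neighbouring centres was 5432 bp over 989 pairs, with quartiles of 1327 and 22709 bp. It was 6298 bp on X, 2L, 2R and 3R pooled, and ran from 5491 bp on 2R to 9292 bp on X. The ratio of 3L to the pooled arms was 0.86, and to 2L, 2R and 3R alone 0.94. Centres under 1000 bp apart made up 184 pairs, or 18.6%, against 17.2% on the other arms. Runs with gaps of no more than 500 bp numbered 148 and took in 357 peaks, 36.1% of the peaks on the arm, and the other 633 stood singly. This share was not worked out for the other arms. Groups of 2 numbered 104, groups of 3 numbered 33, and groups of 4 or more numbered 11.

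The largest group had 6 peaks within 4188 bp, from 15525679 to 15529866. Their scores, from the telomeric side, were 10.40, 19.94, 16.64, 11.42, 29.54 and 14.88. None was strong, and the highest scores belonged to the pair of widest members, of 833 and 844 bp. The group of 5 at 1318548 to 1320924 had a highest score of 15.35, and the one at 3244635 to 3249446 reached 36.58. Further groups of 5, starting at 12401168 and at 13995338, reached 18.6 and 32.68. A strong peak was thus found in 1 of these 4.

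Peaks with another centre under 1000 bp away were the weakest on 3L. A centre that close also limits how wide a peak can be, and wider peaks scored higher, so this class is not independent of score. The 316 peaks with another centre under 1000 bp away had a median score of 12.16, and 8.54% of them were strong. For the 375 with a nearest centre 1000 to 5000 bp away the median was 14.03 and the strong share 18.4%. For the 196 at 5000 to 20000 bp these were 16.86 and 23.5%. The 103 peaks with none within 20000 bp had a median of 14.13 with 23.3% strong, so the median did not rise further on 3L. On the other large arms the medians of the same classes were 12.46, 14.53, 16.71 and 19.11. The strong shares there were 8.11%, 22.6%, 25.3% and 30.7%, with 398 peaks in the last class.

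Peaks gathered in a minority of windows. The arm was divided into 246 windows of 100 kb, which held 4.02 peaks on average. Windows with 12 or more peaks numbered 19, or 7.72%, against 6.70% on X, 2L, 2R and 3R. They held 306 peaks, 30.9% of those on 3L, against 27.7% on the other arms. Windows with no peak numbered 49, or 19.9%, against 22.8% on the other arms. The 19 dense windows lay in 14 places, 4 of which spanned 2 or 3 neighbouring windows.

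**Figure D4:**
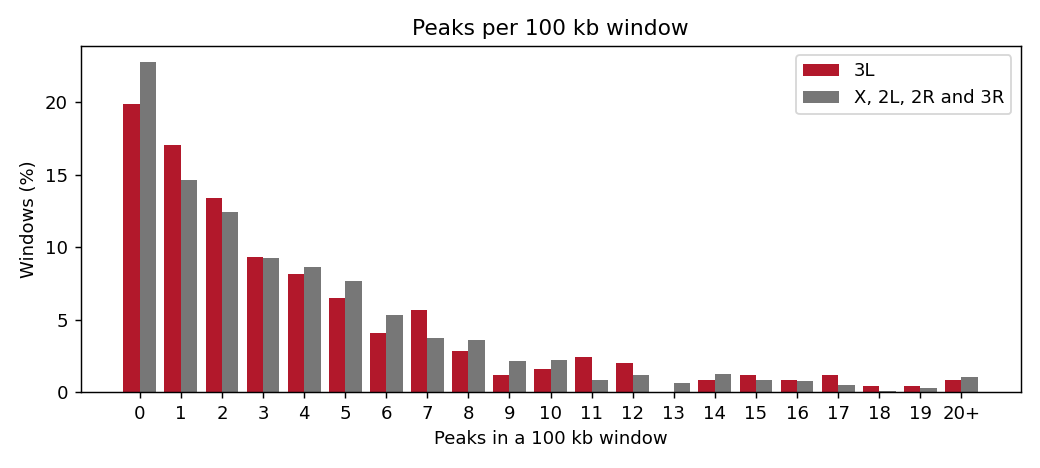
Paired bars give the percentage of 100 kb windows that hold a given number of peaks, on 3L (red, 246 windows) and on X, 2L, 2R and 3R together (grey, 940 windows); the last pair of bars counts windows with 20 or more. Both distributions fall from the empty class, 19.9% on 3L and 22.8% on the other arms, to a long tail.

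The fullest windows differed in the strength of their peaks. The fullest, 17900001 to 18000000, held 32 peaks, and their scores ran from 6.42 to 22.21 with none strong. The next, 17500001 to 17600000, held 21 peaks, of which 6 were strong, with a highest score of 109.86. The window from 15500001 to 15600000 held 19 peaks with 1 strong. The window from 16100001 to 16200000 held 18, with a highest score of 22.6 and none strong. Next came 3 windows tied at 17 peaks each. The one from 18000001 to 18100000 had 4 strong peaks and a highest score of 124.48. The one from 18800001 to 18900000 had 1 strong peak and a highest score of 40.15, and the one from 19800001 to 19900000 had 2 and a highest score of 60.2.

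Over all 19 dense windows the median score was 12.49, against 14.36 for peaks outside them, and 11.8% of the peaks were strong, against 19.0%. The windows were chosen for their number of peaks, and crowding limits how wide a peak can be, so this comparison is not independent of score. By count, these 7.72% of the windows held 36 of the 166 strong peaks on 3L. The median width was 361 bp in dense windows and 405 bp outside. They held 4 of the 20 highest-scoring peaks, 20% of that set, and 30.9% of all peaks on the arm.

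The arm was broken by 16 peak-free stretches of 200 kb or more, which took up 4.96 Mb, or 20.2% of its length. On X, 2L, 2R and 3R there were 78 such stretches over 24.0% of the length. Per 10 Mb, 3L had 6.52 and the other arms had 8.31. The longest on 3L was 435.5 kb, from 24021825 to 24457288, between the strong peak of score 168.44 and the last pair beside the centromere. Nearly as long were 434.8 kb from 18179368 to 18614181, 427.5 kb from 9890654 to 10318147 and 411.9 kb from 13481773 to 13893718. The fifth, 375.2 kb from 23332517 to 23707674, was again close to the centromere. Of the 16, 5 reached into the last 2 Mb.

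Peaks at the borders of these stretches were often strong. Of the 32 border peaks 14 were strong, or 43.8%, against 152 of 958 other peaks, or 15.9%. At the 5 stretches that reached into the last 2 Mb, 8 of 10 borders were strong, and at the 11 stretches further out 6 of 22. Among all 27 peaks in the last 2 Mb, 51.9% were strong. Of the 103 peaks on 3L with no other centre within 20000 bp, 23.3% were strong.

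The peak-free stretches divided 3L into 17 blocks of peaks. The 10 blocks with at least 20 peaks held 943 of the 990, at densities of 32.9 to 128.9 peaks per Mb with a median of 44.8. Their median scores lay between 12.46 and 18.18. The longest block spanned 3.84 Mb, from 18614182 to 22449539, with 191 peaks. Of the 7 smaller blocks, 5 lay in the last 2 Mb of the arm.

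The block of highest density among the 10 lay between a peak-free stretch of 328.3 kb and the one of 434.8 kb. It ran from 17372602 to 18179367 and held 104 peaks in 806.8 kb. It contained the fullest window, the second fullest and 1 of the 3 windows with 17 peaks. Its strong peaks numbered 15, or 18.6 per Mb, against 6.77 per Mb over the whole arm, and made up 14.4% of its peaks, against 16.8% on the arm. The block had more strong peaks per Mb, then, but about the same proportion of them.

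The strong peaks of this block lay on both sides of the fullest window, with weak peaks among them. Its first 527.4 kb held 52 peaks, of which 11 were strong, and 10 of these lay between 17480008 and 17607598. The peaks in that run included scores of 100.44, 109.86, 88.40 and 105.79. The 32 peaks of the fullest window, with a median score of 11.41, followed after a sparse interval. The last 179.4 kb held 20 peaks with 4 strong, the highest being the 621 bp peak of score 124.48.

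**Figure D5:**
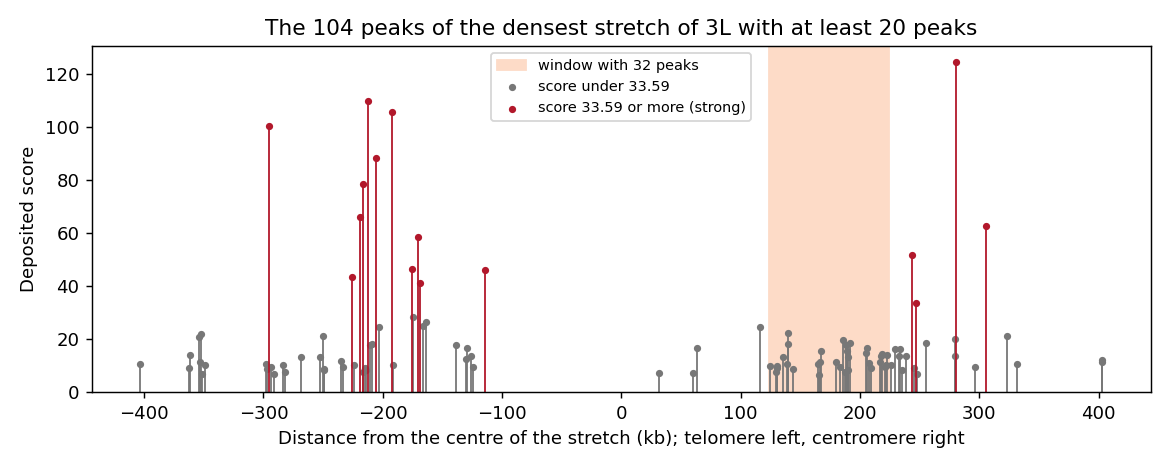
Each stem is 1 of the 104 peaks in the densest of the 3L blocks with at least 20 peaks, with its deposited score as height, against its distance in kb from the centre of the block; strong peaks are red and the window with 32 peaks is shaded. The shaded window holds no strong peak and a highest score of 22.21, while the 11 strong peaks to its left and the 4 to its right reach 109.86 and 124.48.

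The scores were also set against the background of the list. Callers of the MACS family can take either a single level for the genome or a higher level found around a peak as the background, and the settings used here are not stated. Many scores matched −log10 of a Poisson upper-tail probability for whole read numbers at 1 background mean of 66.9 for the whole list. On 3L 756 scores lay within just over 0.01 of a member of this series, or 76.4% (exact Clopper-Pearson 95% interval 73.6% to 79.0%, counting error only). The interval treats peaks as independent, which they are not. The mean was chosen to match as many scores of the list as possible, those of 3L included. On the other large arms the share was 79.3%, with 94.7% on X and 75.6% to 75.9% on 2L, 2R and 3R. Read on this series, the matching peaks of 3L had a pile-up of 1.64 to 7.06 times the background, with a median of 2.05.

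The share of matching scores varied along 3L. It was 80.1% from 15000001 to 20000000 and 66.4% from 20000001 onwards. The lowest megabase was 21000001 to 22000000, with 31 of 61 peaks, or 50.8%. The dense window from 21500001 to 21600000 inside it had 2 of 16. In the 2 Mb next to the centromere the share was 70.4%, against 76.5% on the rest of the arm. In the 4 Mb next to it the share was 60.0%, against 78.2% on the rest. Among the 20 highest-scoring peaks 15 matched. The highest peak of the arm, with a score of 232.59, and the telomeric peak of 161.93 did not. No read values were used here, and a local background was therefore not measured.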

How the data were processed

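ChIP-seq peaks were taken from 1 deposited list for 2 Hr78-GFP ChIP libraries and 1 input DNA library, with 1 score per peak. The score and the coordinates are the authors' own; the build is FlyBase release 5 and the source is MACS, per the file headers. The submitters' processing notes name BDGP5, BWA, MACS2 and the CASAVA versions 1.7.0.2 and 1.7.0.3 without saying what each did. How the score was defined, the threshold and any pooling of replicates are not stated in the sources used. Both ends of a peak are included, and start and end in bp were used as deposited.

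The length of an arm was taken as its highest peak end. Windows are consecutive from position 1 and hold peaks by their centre. The Poisson mean was fitted on the whole list between 20 and 200, with a match tolerance just over 0.01. Named are the 20 highest-scoring and 5 widest peaks, the 5 fullest windows with those tied, the 5 longest peak-free stretches, the largest group, and the strong peaks in the last 2 Mb. The telomeric density ratio was planned, for 2 Mb and with 1 Mb and 4 Mb as alternatives. The other telomeric values, the block values, the groups of 5 and the other places were chosen after the values were seen. Members and settings were chosen with earlier results of these data known. The gene table at hand is of release 6, so no peak was assigned to a gene and no sequence was read. Functions were tested on simulated data. Python 3.11.15, numpy 2.4.6, scipy 1.17.1, pandas 2.3.3 and matplotlib 3.10.9 were used. No test was run, and depth is unknown, so precision between libraries cannot be given.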

Additional observations from a re-analysis of the deposited data

How the results depend on the processing

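Of 30 alternatives, 17 kept their direction and moved by no more than 1.5 times or, for the share on the Poisson series, stayed inside its exact interval of 73.6% to 79.0%. Against 2L, 2R and 3R alone, the density ratio of 3L was 0.988 and the median score difference 0; with the 2456 highest-scoring peaks (score of 14.36 or more) the density ratio was 0.998. With peaks within 500 bp merged, the score difference was −1, against −0.32 as reported, and the dense windows numbered 10, against 19. With the 2456 highest-scoring peaks there were 0 dense windows and 27 peak-free stretches of 200 kb or more, against 16, because fewer peaks were counted; the density ratio of the centromere-proximal 2 Mb was then 0.478, against 0.316. With a stretch of 1 Mb that ratio was 0.168 and the score difference 61.4, and with 4 Mb they were 0.577 and 3.40, against 34.46 in 2 Mb. With a tolerance of 0.0051, 72.9% of 3L scores matched the Poisson series, lower by construction. No paired analysis was possible because the list has no column per library, and for the same reason no replicate could be left out. The unknown depth limits how far weak peaks can be read.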
